A study of Homo sapiens with 12 samples.

Results

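The 10 genes described here encode the first committed enzyme of sphingolipid synthesis, a regulator of it, and enzymes that add the second fatty acid of ceramide. They are SPTLC1, SPTLC2, SPTLC3, SPTSSA and SPTSSB, which encode subunits of serine palmitoyltransferase (SPT), ORMDL3, which encodes a regulator of SPT, and CERS2, CERS4, CERS5 and CERS6, which encode ceramide synthases. They were taken by gene symbol from 60660 annotated genes, and all 10 were found. The group was drawn up after SPTLC3 had given the smallest p for a difference between the cell lines in the effect of the mimic, so the values of SPTLC3 are given below as a description with no test. The RNA came from LNCaP cells, an androgen-sensitive human prostate cancer (PCa) line from a lymph node metastasis, and from 22Rv1 cells, a human PCa line from a xenograft that relapsed after castration. Each line was transfected with piR-4447944 mimic, a synthetic RNA oligo with the sequence of the PIWI-interacting RNA piR-4447944, or with its negative control, NC-mimic. All 4 groups were kept without androgen, in 10% CS-FBS, a serum from which charcoal has removed the steroids, and each group had 3 mRNA libraries. The mimic adds an oligo from outside and alters no gene, and each line is a single tumor-derived line, so a difference between the lines is a difference between these 2 lines and not between kinds of PCa.

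SPT joins serine to an activated fatty acid on the endoplasmic reticulum, and this step sets the rate at which the sphingoid backbone is made. SPTLC1 pairs with SPTLC2 or SPTLC3, which carry the catalytic site, and a small subunit, SPTSSA or SPTSSB, raises the activity and shifts the choice of fatty acid. ORMDL proteins bind SPT and hold it back when ceramide is plentiful. Ceramide synthases then add a second fatty acid, and the family members differ in the chain they prefer: very long chains for CERS2, long saturated chains of middle length for CERS4, and palmitate for CERS5 and CERS6.

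The libraries held between 12161091 and 22179601 expected counts, that is, reads per gene as estimated by RSEM. All 9 luminal prostate markers examined had at least 1 TPM, a unit of transcripts scaled for length and depth, in every library of both lines, with a sum between 4845 and 5301 TPM in LNCaP and between 1893 and 2536 TPM in 22Rv1. Of the 3 basal, 3 fibroblast, 3 leukocyte and 3 endothelial markers, only the fibroblast marker COL1A1 passed that level in every library of both lines, and the leukocyte marker CD68 did so in LNCaP alone. The fibroblast markers summed to between 25.24 and 43.54 TPM in LNCaP and between 4.86 and 22.52 TPM in 22Rv1. Most of this was COL1A1, with a mean of 32.53 TPM in LNCaP and 9.18 TPM in 22Rv1. The other fibroblast markers were low and had higher means in 22Rv1: COL3A1 had 0.2817 and 0.5117 TPM, and DCN had 0.105 and 0.97 TPM. The part of these markers in the differences between the lines was not tested. Both 22Rv1 libraries numbered 3 stood apart. Their chi-square per gene against the other replicates of their group lay between 37.69 and 106.2, against 7.232 and 8.396 between replicates 1 and 2 and between 3.43 and 15.03 in LNCaP. The labels do not say whether the libraries of a group came from separate cultures, so the p-values below measure the spread between libraries, which may be technical.

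The largest contrasts between paralogs concerned the catalytic subunits SPTLC2 and SPTLC3, the small subunits SPTSSA and SPTSSB, and the ceramide synthases. In the hg38 build that the files use, SPTLC3 lies at chr20:13008972-13169103 on the plus strand, and SPTLC2 at chr14:77505997-77616637 on the minus strand. SPTSSA lies at chr14:34432788-34462240 and SPTSSB at chr3:161344798-161372880, both on the minus strand. CERS4 lies at chr19:8206736-8262421 on the plus strand. Since SPTSSA was read in every library and SPTSSB was near 0 in LNCaP, the 250 bases before the RefSeq start of each (GRCh38.p14, minus strand, written 5′ to 3′) are shown for comparison, with GC boxes (GGGCGG or CCGCCC) and CCAAT boxes (CCAAT or ATTGG) in capitals.
SPTSSA, chr14:34462241-34462490: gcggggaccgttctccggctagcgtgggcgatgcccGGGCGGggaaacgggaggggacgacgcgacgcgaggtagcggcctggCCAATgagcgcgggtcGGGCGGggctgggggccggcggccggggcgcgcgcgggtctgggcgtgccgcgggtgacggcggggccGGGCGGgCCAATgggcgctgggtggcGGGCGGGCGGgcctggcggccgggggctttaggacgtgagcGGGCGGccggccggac
SPTSSB, chr3:161371518-161371767: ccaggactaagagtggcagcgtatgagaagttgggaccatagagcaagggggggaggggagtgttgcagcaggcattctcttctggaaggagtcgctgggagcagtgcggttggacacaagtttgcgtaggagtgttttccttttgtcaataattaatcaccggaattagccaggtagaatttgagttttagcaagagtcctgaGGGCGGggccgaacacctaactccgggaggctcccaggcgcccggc
The SPTSSA window had a GC content of 82.0%, 43 CpG dinucleotides, 6 GC boxes, 2 of which overlap, and 2 CCAAT boxes. The SPTSSB window had a GC content of 54.8%, 10 CpG dinucleotides, 1 GC box and 0 CCAAT boxes. It lies inside the span of SPTSSB given above, which is from GENCODE, and so depends on the start chosen. The SPTSSA window lies just outside the span of its gene, so the windows are not alike in place. Over all 35116 RefSeq windows of this length, 42.6% held a GC box on either strand, 32.0% held a CCAAT box, and the median number of CpG dinucleotides was 11. Neither window held a TATA box (TATAAA or TTTATA), which 10.7% of all windows held. These matches describe the letters only. Of the 10 genes, 7 were matched in the RefSeq promoter table, and SPTLC3, CERS2 and CERS4 were not.

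The first comparison asked how the genes differ between the lines. SPTLC3 and CERS4 were far lower in 22Rv1 than in LNCaP, CERS6, ORMDL3 and SPTLC1 were more mildly lower, and SPTSSB, SPTSSA and CERS5 were higher in 22Rv1. In a fit of all 12 libraries with edgeR's quasi-likelihood test and the mimic as a term, 7 of the 9 genes other than SPTLC3 had an adjusted p under 0.05, 3 of them higher and 4 lower in 22Rv1. The same threshold was passed by 67.7% of the 18720 genes tested, 36.2% higher and 31.6% lower in 22Rv1, so a change of line is common among all genes. CPM are counts scaled to the TMM-normalized library size and not to transcript length. Those of the lines did not overlap for 7 of these 9 genes, against 49.3% of all genes tested. The median log2 fold change of the 9 genes was -0.22, beside 0.05 for all genes. Without both 22Rv1 libraries numbered 3, which stood apart, 7 of the 9 genes passed, beside 74.9% of all genes, with CERS4 at -4.65 and SPTSSB at 4.03 on the log2 scale.

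**Figure D1:**
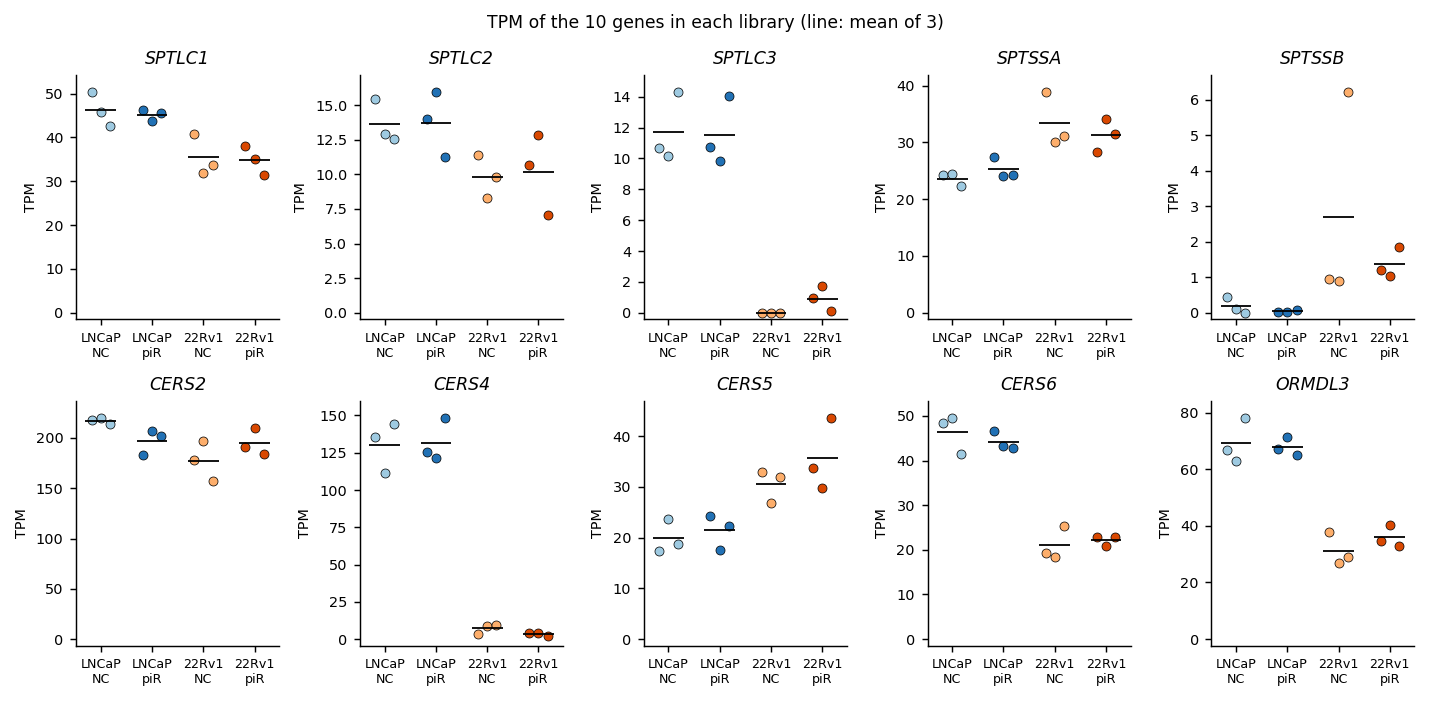
TPM of the 10 genes in each of the 12 libraries (points) with the mean of each group of 3 (line), for LNCaP and 22Rv1 with NC-mimic (NC) or piR-4447944 mimic (piR), each panel with its own linear axis that starts near 0. SPTLC3 and CERS4 are high in the 6 LNCaP libraries and low in the 6 22Rv1 libraries, SPTSSB is the reverse, and the 2 treatments of a line lie close together for most genes.

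Among the SPT subunits, SPTLC1, the partner that every SPT complex needs, had the highest mean TPM in both lines. Its TPM ran from 42.56 through a median of 45.7 to 50.34 in LNCaP and from 31.41 through 34.44 to 40.79 in 22Rv1. The lines did not overlap, and the log2 fold change of 22Rv1 over LNCaP was -0.30 (SE 0.07, n = 6 per line, edgeR adjusted p = 0.00205). With the NC-mimic libraries alone it was -0.24, with an adjusted p of 0.0625.

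SPTLC2, the widely expressed catalytic subunit, had 11.25 to 15.93 TPM in LNCaP (median 13.47) and 7.05 to 12.81 TPM in 22Rv1 (median 10.25). These ranges overlap, and the log2 fold change of -0.22 (SE 0.10) did not pass the threshold (edgeR adjusted p = 0.0678).

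SPTLC3, the catalytic subunit that also takes up shorter fatty acids, was close to SPTLC2 in level in LNCaP and nearly absent from 22Rv1. The LNCaP libraries with NC-mimic had 10.67, 10.14 and 14.29 TPM, and those with piR-4447944 mimic had 10.75, 9.80 and 14.02 TPM. In 22Rv1 the NC-mimic libraries had 0, 0 and 0 TPM, and the mimic libraries had 0.93, 1.74 and 0.10 TPM. Every LNCaP library lay above every 22Rv1 library. The fitted log2 fold change was -6.13 (SE 0.56), and it is not free of the values by which the gene was noticed, since it rests in part on the zeros of the NC-mimic libraries. It was -11.56 with the NC-mimic libraries alone and -4.97 with the mimic libraries alone, and its size depends on the small count that the fit adds to zeros. Only 264 of the 18720 genes had a lower fold change. Summed over the NC-mimic libraries, LNCaP held 1185 SPTLC3 counts, or 21.78 CPM (exact 95% Poisson interval 20.56 to 23.05). The 3 22Rv1 NC-mimic libraries held 0 (exact 95% Poisson interval 0 to 0.07375 CPM). The LNCaP level was 363.1-fold a floor of 3 counts over that 22Rv1 group, 0.05998 CPM. This ratio depends on the floor chosen and is not a lower bound. With the mimic, where both lines had reads, SPTLC3 was 32.14-fold higher in LNCaP. Such intervals and floors cover counting error only.

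SPTSSA, the small subunit made in most tissues, was moderately higher in 22Rv1, with 28.24 to 38.85 TPM (median 31.31) against 22.28 to 27.44 TPM (median 24.27) in LNCaP. The ranges did not overlap, and the log2 fold change was 0.44 (SE 0.08, edgeR adjusted p = 0.000431). SPTSSB, the small subunit that favors longer fatty acids, was read in every 22Rv1 library and hardly at all in LNCaP. Its expected counts in LNCaP were 4, 4 and 0 with NC-mimic and 1, 1 and 3 with the mimic. In 22Rv1 they were 47, 32 and 113 with NC-mimic and 29, 40 and 62 with the mimic. The log2 fold change was 4.78 (SE 0.60, edgeR adjusted p = 1.13e-05), and 1126 of the 18720 genes had a higher one. In TPM the SPTSSB level was at most 0.45 in LNCaP and lay between 0.90 and 6.21 in 22Rv1, so it remained below SPTSSA in every library. The highest value, 6.21 TPM in 22Rv1 NC-mimic replicate 3, came with a mean transcript length of 2097.8 bases, against 3103 bases in both other NC-mimic libraries. Both the SPTSSB count and the transcript length therefore differed in that library, which is one of those that stood apart.

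ORMDL3, one of a trio of ORMDL proteins, was lower in 22Rv1. It had 63.07 to 77.94 TPM in LNCaP (median 67.09) and 26.84 to 40.17 TPM in 22Rv1 (median 33.86), with no overlap. The log2 fold change was -0.95 (SE 0.09, edgeR adjusted p = 4.65e-07). The other two ORMDL genes did not share this: ORMDL1 was higher in 22Rv1 (log2 fold change 0.52, adjusted p = 5.48e-05), and ORMDL2 had a log2 fold change of -0.05 (adjusted p = 0.664). They are named here after their values were seen.

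Of the ceramide synthases, CERS2, which makes ceramides with very long chains, was the most abundant of the 10 genes in both lines. It had 183.08 to 219.37 TPM in LNCaP (median 210.4) and 157.03 to 209.78 TPM in 22Rv1 (median 187.3), and these ranges overlap. The log2 fold change of -0.14 (SE 0.06) did not pass the threshold (edgeR adjusted p = 0.0722).

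CERS4 followed CERS2 in LNCaP and was low in 22Rv1. The LNCaP libraries had 135.44, 111.14 and 144.36 TPM with NC-mimic and 125.24, 121.18 and 147.98 TPM with the mimic. The 22Rv1 libraries had 3.66, 8.83 and 9.34 TPM with NC-mimic and 4.24, 4.36 and 2.02 TPM with the mimic. Every LNCaP library lay above every 22Rv1 library. The log2 fold change was -4.70 (SE 0.17, edgeR adjusted p = 9.61e-11), and it stayed between -5.00 and -4.42 over 21 alternatives. Only 433 of 18720 genes had a lower fold change. In expected counts CERS4 had 1596 to 2204 in LNCaP and 39 to 94 in 22Rv1, so the 22Rv1 values rest on few reads.

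The 2 ceramide synthases that prefer palmitate went opposite ways. CERS5 was higher in 22Rv1, with 26.81 to 43.50 TPM (median 32.47) against 17.45 to 24.33 TPM (median 20.52) in LNCaP, and had a log2 fold change of 0.51 (SE 0.10, edgeR adjusted p = 0.000678). CERS6 was lower in 22Rv1, with 18.46 to 25.44 TPM (median 21.87) against 41.44 to 49.44 TPM (median 44.98), and had a log2 fold change of -1.03 (SE 0.09, edgeR adjusted p = 2.40e-07). Neither gene overlapped between the lines.

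**Figure D2:**
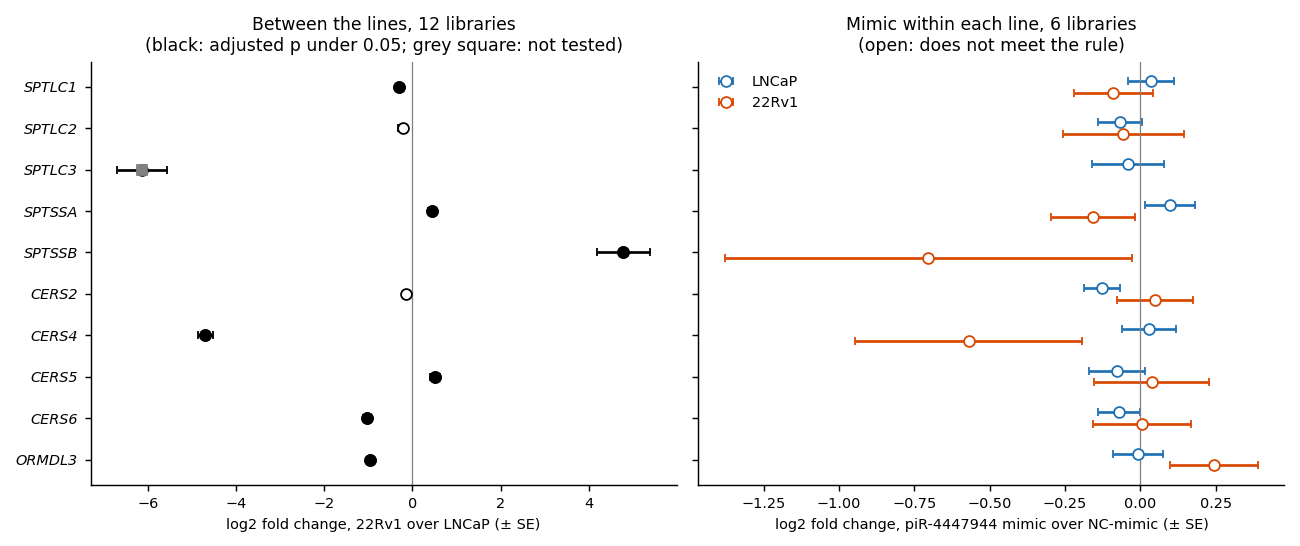
Log2 fold change with its SE for the 10 genes from the edgeR fits, for 22Rv1 over LNCaP in 12 libraries (left, black points with an adjusted p under 0.05, SPTLC3 as an untested grey square) and for piR-4447944 mimic over NC-mimic in the 6 libraries of each line (right, on a finer axis). SPTLC3 at -6.13 and CERS4 at -4.70 stand to the left and SPTSSB at 4.78 to the right between the lines, while the mimic values all lie between -0.70 and 0.24; SPTSSB in LNCaP and SPTLC3 in 22Rv1 had too few reads to enter the mimic fits.

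Because TPM are scaled for transcript length, the genes can also be ranked within a line. In LNCaP the mean TPM fell from CERS2 (207.1 ± 13.54, SD, n = 6) through CERS4 (130.9 ± 14.22) and ORMDL3 (68.59 ± 5.352) to SPTLC1 (45.73 ± 2.672) and CERS6 (45.34 ± 3.313). The last 2 overlap in range. SPTSSA (24.47 ± 1.661) and CERS5 (20.71 ± 3.129) came next and also overlap, as do SPTLC2 (13.68 ± 1.789) and SPTLC3 (11.61 ± 2.003) below them, and SPTSSB was last at 0.115 ± 0.1681. In 22Rv1 CERS2 (186.0 ± 17.99) stood alone at the top. SPTLC1 (35.19 ± 3.661), ORMDL3 (33.57 ± 5.129), CERS5 (33.13 ± 5.671) and SPTSSA (32.32 ± 3.727) followed with overlapping ranges. CERS6 (21.62 ± 2.573), SPTLC2 (10.01 ± 2.09) and CERS4 (5.408 ± 2.972) came below, the last 2 again overlapping. SPTSSB (2.025 ± 2.08) overlaps both CERS4 and SPTLC3 (0.4617 ± 0.7244), which had the lowest mean.

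Since paralogs take alternative places in one reaction, their shares of the summed TPM were compared between the lines, 6 libraries against 6, with a two-sided exact permutation test that cannot give a p below 0.00216. This test takes the libraries of a line as independent, which same-numbered 22Rv1 libraries may not be, so its p may be too small. There were 8 shares, and the adjusted p is after Benjamini-Hochberg correction over them. The SPTLC3 share was counted in that correction although its own p is not given, so the other adjusted p depend on it in part. SPTLC3 made up 45.85% ± 6.959 (SD, n = 6) of the SPTLC2 plus SPTLC3 transcripts in LNCaP and 3.562% ± 5.159 in 22Rv1, a description with no test. The 22Rv1 mean joins 0% in the NC-mimic libraries with 1.399 to 11.96% in the mimic libraries, and is 1.88% without mimic replicate 2. Those mimic libraries held 6, 19 and 7 SPTLC3 counts, against 942, 1129 and 643 SPTLC2 counts. Their shares depend also on the transcript length RSEM assigned to SPTLC3, which was 839.92, 1070.93 and 6191 bases. The summed TPM of the pair was 25.29 ± 1.299 in LNCaP and 10.47 ± 2.641 in 22Rv1. SPTSSB made up 0.465% ± 0.6806 of the small subunit transcripts in LNCaP and 5.747% ± 5.444 in 22Rv1 (exact permutation p = 0.00216, adjusted 0.00289). The mean is 3.57% in 22Rv1 without NC-mimic replicate 3 and 0.194% in LNCaP without NC-mimic replicate 1.

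The makeup of the ceramide synthases also differed. CERS4 made up 31.14% ± 2.718 of the TPM of the 6 ceramide synthase genes in LNCaP and 2.033% ± 1.235 in 22Rv1. The share of CERS2 was 49.33% ± 2.37 in LNCaP and 68.09% ± 3.345 in 22Rv1, although the change of its own level did not pass the threshold, and the summed TPM was 419.9 ± 17.06 and 272.8 ± 17.58. The share of CERS5 was 4.951% ± 0.8675 in LNCaP and 12.17% ± 2.078 in 22Rv1, and that of CERS1, a ceramide synthase outside the 10 genes, was 3.719% ± 0.4887 and 9.722% ± 2.252. Each of these 4 shares had an exact permutation p of 0.00216 (adjusted 0.00289), the smallest the test can give. CERS6 was at 10.82% ± 0.9813 in LNCaP and 7.98% ± 1.354 in 22Rv1 (exact permutation p = 0.00649, adjusted 0.00742). CERS3, the ceramide synthase of skin and testis, was at most 0.09335% in any library (exact permutation p = 0.0606, adjusted 0.0606). The 6 shares sum to a whole and are not independent. Reads of CERS1 are uncertain, since it shares transcripts with the growth factor gene GDF1.

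The second comparison asked how piR-4447944 mimic changes the genes within a line, the question the libraries were made for. None of the genes tested met the rule the study used, that is, an unadjusted p under 0.05 together with a log2 fold change beyond 0.2 in either direction: 0 of 8 in LNCaP, 0 of 9 in 22Rv1 and 0 of 9 in the mean over both lines. SPTLC3 was left out of these counts, since it was chosen by its mimic values, and SPTSSB had too few reads in LNCaP. The rule was met by 2.22%, 1.48% and 1.54% of all genes tested in the 3 fits. No gene tested had an adjusted p under 0.05 by edgeR in any of these 3 fits, while 433, 250 and 340 genes had an unadjusted p under 0.05. DESeq2 called 2 genes in LNCaP, 2 higher and 2 lower in 22Rv1, and 0 in the mean at an adjusted p under 0.05. In the same order, limma on log2(TPM + 1) called 1, 2 and 0. With SPTLC3 left out here too, none of these DESeq2 and limma calls fell on a gene of this group. Over all genes, some passed an adjusted p under 0.05 in alternatives of the edgeR fits. In LNCaP these were 25 higher and 21 lower without the low-count filter, and 1 and 1 without NC-mimic replicate 3. In 22Rv1 they were 2 higher and 2 lower without both libraries numbered 3. By DESeq2, CERS2 in LNCaP had an unadjusted p of 0.0442, and 0 genes of the group other than SPTLC3 met the rule. A p over the threshold does not show that the genes are unaffected, and the SE below give the precision.

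In LNCaP the fold changes were small. CERS2 had the largest, with 217.88, 219.37 and 213.75 TPM with NC-mimic and 183.08, 207.04 and 201.75 TPM with the mimic. The mimic libraries were all below the NC-mimic libraries, and the log2 fold change was -0.13 (SE 0.06, edgeR unadjusted p = 0.0506, adjusted p = 0.999). CERS2 was the only one of the 9 genes in the LNCaP fit whose CPM did not overlap between the treatments, and 8.06% of all genes did not. At the other end, SPTSSA had a log2 fold change of 0.10 (SE 0.08).

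In 22Rv1 the largest log2 fold changes belonged to the 2 genes with the fewest reads. SPTSSB had -0.70 (SE 0.67) and CERS4 -0.57 (SE 0.38), both with an edgeR adjusted p of 0.999. For CERS4 the NC-mimic libraries had 4.248, 5.744 and 5.891 CPM and the mimic libraries 4.956, 3.272 and 2.424 CPM, so the treatments overlap. With all 12 libraries in one fit, CERS4 met the study's rule at -0.56, as did 6.58% of all genes. The SPTSSB value rests on the 113 counts of NC-mimic replicate 3, and without that library it was 0.38. ORMDL3 had 45.05, 39.88 and 35.75 CPM with NC-mimic and 49.84, 49.91 and 42.58 CPM with the mimic, higher with the mimic in each of the 3 same-numbered pairs, with a log2 fold change of 0.24 (SE 0.14, edgeR unadjusted p = 0.134). The other 6 genes tested in 22Rv1 had log2 fold changes between -0.16 and 0.05, and none of the 9 genes in this fit had treatments that did not overlap, beside 8.63% of all genes. For a difference between the lines in the effect of the mimic, 0 of the 9 genes other than SPTLC3 had an adjusted p under 0.05 by edgeR. Over all 18720 genes, 0 (0.0%) passed that threshold and 610 had an unadjusted p under 0.05.

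SPTLC3 was singled out by that difference between the lines, and its values are given without a test. In LNCaP its expected counts were 390, 426 and 369 with NC-mimic and 266, 335 and 416 with the mimic. The CPM were 20.56, 22.34 and 22.54 with NC-mimic and 17.81, 20.72 and 24.48 with the mimic, so the mimic libraries span the NC-mimic ones. In 22Rv1 no read was assigned to SPTLC3 in the NC-mimic libraries, and 6, 19 and 7 were assigned in the mimic libraries. The 32 counts of the mimic group correspond to 0.6578 CPM (exact 95% Poisson interval 0.4499 to 0.9286). That is 10.97-fold the floor of 3 counts over the NC-mimic group, which is not a lower bound. SPTLC3 was noticed by these counts, so neither the interval nor the ratio tests an effect of the mimic. The 32 counts amount to 3.112% of the LNCaP level with the mimic, so SPTLC3 stayed nearly absent from 22Rv1 in both treatments. SPTLC3 had too few reads to enter the 22Rv1 fit.

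The TPM of SPTLC3 in 22Rv1 depended on the transcript length that RSEM assigned. Mimic replicates 1 and 3 had nearly the same count, 6 and 7, but TPM of 0.93 and 0.10. The mean transcript length used was 839.92 bases in replicate 1, 1070.93 bases in replicate 2 and 6191 bases in replicate 3. In LNCaP it lay between 2271.46 and 3136.63 bases. The order of these 3 libraries in TPM is therefore not their order in reads.

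**Figure D3:**
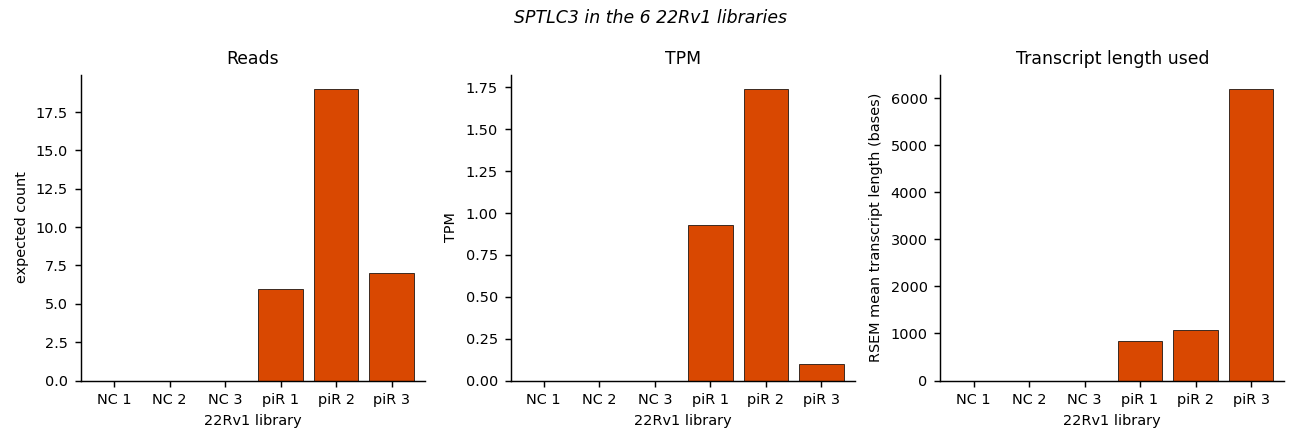
SPTLC3 in the 6 22Rv1 libraries with NC-mimic (NC) or piR-4447944 mimic (piR), as estimated count (left), TPM (middle) and the mean transcript length RSEM used where reads were assigned (right), as bars from 0. The NC-mimic libraries have no reads, and the third mimic library, with 7 reads and a length of 6191 bases, has 0.10 TPM, against 0.93 TPM for the first with 6 reads and 839.92 bases.

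The counts of SPTLC3 gave a limit, set after they were seen: 0 in one treatment and 6 or more in every library of the other. In 22Rv1, 7 of the 60660 genes met it with the reads in the mimic libraries, SPTLC3 among them by construction. Another 3 met it with the reads in the NC-mimic libraries. In LNCaP 0 genes met it either way, and the part of the spread between 22Rv1 replicates in this was not tested. A further 85 genes had at least 10 CPM in LNCaP and at most 2% of that in 22Rv1, limits likewise set after the values were seen, which hold these genes low in 22Rv1. Their sum was 0.604, 0.527 and 0.809% of the LNCaP level in the NC-mimic libraries and 0.577, 0.646 and 0.740% in the mimic libraries. The sums overlapped between the treatments.

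The 3 genes whose log2 CPM across the 12 libraries was most like that of SPTLC3 were AC020659.1 (Pearson's r = 0.9927), GAGE2A (0.9902) and TTN (0.9894). All 3 were higher in LNCaP than in 22Rv1. Such correlations across libraries of 2 lines follow the difference between the lines, and 99 of 18719 genes had an r over 0.95. GAGE2A belongs to a family of nearly identical copies, so its reads are uncertain.

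The genes upstream and downstream of the 10 were read from 8 lists with 60 genes, of which 54 were tested between the lines. By edgeR, 17 were higher in 22Rv1, 21 were lower and 16 had an adjusted p of 0.05 or more, so 70.4% changed, beside 67.7% of all genes. In the rest of the de novo route and its regulators, 3 of 6 genes were higher, 1 was lower and 2 did not pass. DEGS1, the desaturase that turns dihydroceramide into ceramide, was lower in 22Rv1 (224.5 ± 17.86 TPM in LNCaP, 71.01 ± 15.84 in 22Rv1, SD, n = 6, log2 fold change -1.64). KDSR, the reductase that follows SPT, was higher (19.09 ± 1.751 and 27.79 ± 4.918 TPM, log2 fold change 0.64). CERS1 was higher as well (15.61 ± 2.142 and 26.65 ± 6.79 TPM, log2 fold change 0.58), but not past the threshold without 22Rv1 NC-mimic replicate 1, where the log2 fold change was 0.40 (edgeR adjusted p = 0.0651), nor with the NC-mimic libraries alone, where it was 0.35 (adjusted p = 0.365).

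Serine and fatty acids feed the pathway. Of the 5 serine synthesis genes, 1 was higher, 1 lower and 3 did not pass. PHGDH, which opens serine synthesis, was lower in 22Rv1 (360.5 ± 28.83 and 199.8 ± 23.17 TPM, log2 fold change -0.79), and SHMT2, the mitochondrial enzyme that turns serine to glycine, was higher (182.9 ± 13.11 and 556.7 ± 206.1 TPM, log2 fold change 1.59). Of 11 fatty acid elongation genes, 5 were higher, 3 lower and 3 did not pass. ELOVL4, which makes the longest chains, had 0.2217 ± 0.08841 TPM in LNCaP and 12.95 ± 4.97 in 22Rv1 (log2 fold change 5.87). ELOVL2, which elongates polyunsaturated fatty acids, had 0.2517 ± 0.08565 and 6.228 ± 1.581 TPM (log2 fold change 4.64). ELOVL6, which elongates palmitate, was higher in counts (log2 fold change 1.84), while its TPM had an SD above its mean in both lines (24.72 ± 39.34 and 69.96 ± 96.43) and limma on log2(TPM + 1) gave an adjusted p of 0.053.

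Downstream of ceramide, sphingomyelin genes were lower in 22Rv1 in 4 of 7 cases, higher in 2, and 1 did not pass. SGMS1, a sphingomyelin synthase, was lower (31.67 ± 2.456 and 12.4 ± 2.487 TPM, log2 fold change -1.26), as was SMPD1, the acid sphingomyelinase (42.09 ± 4.229 and 19.68 ± 4.099 TPM, -1.15 on the log2 scale). SMPD3, a neutral sphingomyelinase, was higher (1.582 ± 0.2473 and 13.38 ± 1.95 TPM, log2 fold change 3.25). Among 4 genes of ceramide transfer, phosphorylation and hydroxylation, 3 were lower and 1 higher. CERK, the ceramide kinase, and CPTP, which carries ceramide 1-phosphate, were lower by log2 fold changes of -1.31 and -0.72, and FA2H, which hydroxylates the fatty acid, was higher by 1.01, though not past the threshold with the mimic libraries alone (0.91, edgeR adjusted p = 0.155).

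Of 7 genes at the entry to and exit from glycosphingolipids, 2 were higher, 2 lower and 3 did not pass. UGT8, which makes galactosylceramide, was higher in 22Rv1 (2.008 ± 0.8848 and 24.63 ± 11.63 TPM, log2 fold change 3.98), and so was GALC, which breaks it down (0.605 ± 0.2095 and 5.047 ± 1.801 TPM, log2 fold change 3.63). B4GALT5, a lactosylceramide synthase, was lower, with a log2 fold change of -1.25. Of 4 ceramidases tested, ACER2 (log2 fold change -1.01) and the acid ceramidase ASAH1 (-0.46) were lower, and the other two did not pass.

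In the sphingosine 1-phosphate list, 3 of 10 genes were higher, 5 lower and 2 did not pass. The receptors differed: S1PR5 had 0.06 ± 0.05967 TPM in LNCaP and 2.315 ± 1.298 in 22Rv1 (log2 fold change 5.47), and S1PR3 had 4.47 ± 0.4681 and 0.1667 ± 0.1349 TPM (log2 fold change -4.65). ALDH3A2, the dehydrogenase that clears the aldehyde left by sphingosine 1-phosphate breakdown, had 83.3 ± 2.805 and 635.2 ± 115.6 TPM (log2 fold change 3.22). The adjusted p of the pathway genes named as higher or lower was at most 0.0169 by edgeR. With the mimic, 0 of 52 list genes in LNCaP and 0 of 53 in 22Rv1 met the rule of the study. In the mean over both lines 1 of 54 did (1.85%, beside 1.54% of all genes), S1PR5, with a log2 fold change of -1.09 (SE 0.49, edgeR adjusted p = 0.999), and it met the rule in 8 of 18 alternatives.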

How the data were processed

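mRNA of 12 libraries was measured, 3 for each of LNCaP and 22Rv1 cells with NC-mimic or piR-4447944 mimic. Per the labels and the study's methods, reads were aligned to hg38 with STAR 2.7.1a and quantified with RSEM 1.3.0. The authors deposited expected counts per gene, without normalization, with multi-mapping reads shared out by RSEM, and TPM, scaled by transcript length and library sum, which hold no depth. Trimming, strand and read length were not given in the sources used here. No 2 libraries were identical.

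Expected counts were rounded to whole numbers. They were fitted with the quasi-likelihood method of edgeR 4.0.16 under R 4.3.3 (TMM, filterByExpr), with Benjamini-Hochberg adjustment over all genes of a fit. Each SE was derived from the fold change and its F statistic. CPM use the TMM library sizes. The line difference averages over the treatments. It was planned as a test for SPTLC3 too, but is given for that gene without one, since its zeros in 22Rv1 enter both. Gene positions are from GENCODE. The members and the gene lists were chosen with earlier results of these data known. The genes named are the 10 members, up to 3 called genes of each list with the largest fold change, and the 3 genes most like SPTLC3. ORMDL1, ORMDL2 and CERS3 are named besides.

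Deviations from the group means of same-numbered libraries correlated with 0.391, 0.295 and 0.478 in 22Rv1. The numbers were therefore taken to pair those libraries, from the values alone. In LNCaP the correlations were 0.0584, -0.0018 and 0.342, and the numbers were not taken to pair libraries. The line fits and the permutation test still took the 6 libraries of a line as independent, so their p-values may be too small. For the line difference, the replicate block joined same-numbered libraries of both lines and did not pair libraries within 22Rv1. The alternatives were normalization by DESeq2 size factors, a filter on low counts that was absent or required 10 counts in each library, DESeq2 1.42.0, limma 3.58.1 on log2(TPM + 1), which understates changes of low genes, a replicate block, 1 treatment alone, all libraries in one fit, and leaving out libraries.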

Additional observations from a re-analysis of the deposited data

How the results depend on the processing

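Between the lines, SPTSSA, SPTSSB, CERS4, CERS5, CERS6 and ORMDL3 kept their direction and an adjusted p under 0.05 in every alternative that could fit them (20 or 21 each, 20 where at least 10 counts in every library removed SPTSSB). SPTLC1 did so in 20 of 21, and SPTLC2 and CERS2 passed in 3 of 21 each. For the mimic in 22Rv1, 1 gene rather than 0, CERS4 at -0.56, met the study's rule when all 12 libraries were fitted together, a fit in which 6.58% of all genes met it. The SPTSSB log2 fold change with the mimic in 22Rv1 ran from -1.06 to 0.38 when 1 library was left out, the highest without NC-mimic replicate 3, and was 0.013 without both 22Rv1 libraries numbered 3. The CERS3 share difference ran from -0.0484 to -0.0297 percentage points when 1 library was left out, with an adjusted p of 0.0152 without LNCaP mimic replicate 1 or 3. The replicate block changed no call among the 9 genes other than SPTLC3. With it, 7 of them differed between the lines, in a fit where the block did not pair libraries within 22Rv1. For the mimic, 0 of those tested met the rule in either line. The fit of the difference in mimic effect without both 22Rv1 libraries numbered 3 was chosen after seeing the data. In 22Rv1, SPTLC3 had 0 to 19 counts per library, so depth limits its values there.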
